A study of Mus musculus with 40 samples.

Results

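Hematopoietic progenitor cells of newborn (P0) mice carrying Flt3-ITD were compared with those of wild-type mice of the same age. The members were taken from the genotype and age in the labels and from the matching columns of the P0 count table, 4 libraries labelled Flt3-ITD and 4 labelled wild type, so that 8 of the 40 samples of the series are described (36 of the 40 had a column of counts). Each library holds RNA read counts per gene from cells whose source is given as hematopoietic progenitor or multipotent progenitor cells. Neither group carries the other alleles of the series, NHD13 (a NUP98-HOXD13 fusion) or a Runx1 deletion. A further group of 4 P0 libraries, labelled Flt3-ITD with NHD13, entered the fit only to share its estimate of spread, and Flt3-ITD and wild type at 14 days of age (P14, 4 libraries each) were used to compare ages. Nothing in the labels ties the libraries to separate mice, so each p-value reflects only how far these samples vary, which may be technical. The labels give neither the number of mutant alleles nor the sort that gave the cells.

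FLT3 is a receptor tyrosine kinase of early multipotent and lymphoid progenitors. Binding of its ligand activates RAS-MAPK, PI3K-AKT and, more weakly, STAT signalling. The internal tandem duplication (ITD) in the juxtamembrane region makes the receptor active without ligand and directs it strongly to STAT5, which induces feedback inhibitors such as SOCS2 and CISH. It is among the most frequent mutations of acute myeloid leukemia, a disease in which blood progenitors fail to mature.

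The 8 libraries held 23.6 M to 39.3 M counts (median 30.7 M), and 17905 to 19759 genes had a count in each. Transcripts that define progenitors were present in all 8: Kit, the stem cell factor receptor, lay between 542 and 1066 CPM (counts scaled to the same total in every library), Cd34 between 1731 and 2130 CPM, and Myb, a progenitor transcription factor, between 92.0 and 168 CPM. Genotype cannot be checked from these counts, since a count per gene does not show the duplication. The first principal component (28.7% of the variance over 9977 genes) placed the 4 Flt3-ITD libraries at 2.79 to 23 and the 4 wild-type libraries at -20.6 to -8.74, with no overlap.

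Some libraries stood apart. Wild-type replicate 2 held transcripts of liver cells, the tissue in which blood forms before birth: the summed level of 35 hepatocyte markers was 1357 CPM there, 81.4 to 167 CPM in the other wild-type libraries and 56.9 to 86.7 CPM in the Flt3-ITD libraries. Albumin (Alb) alone stood at 201 CPM in it and at 0.704 to 13.7 CPM in the other 7 libraries. The adult beta-globin gene Hbb-bs was at 68.8 CPM in wild-type replicate 2 and at 0.704 to 7.92 CPM elsewhere. Hbb-bt, also a beta-globin gene, did not set that library apart, at 181 to 273 CPM in wild type and 160 to 307 CPM in Flt3-ITD. Mast cell genes were high in all 8 libraries and uneven among them. The summed level of 20 mast cell, basophil and eosinophil markers was 2233, 2097, 9578 and 4555 CPM in wild-type replicates 1 to 4, and 1210.0, 788, 6071 and 728 CPM in Flt3-ITD replicates 1 to 4. Y-linked counts exceeded Xist counts in all 4 Flt3-ITD libraries and in 2 of the 4 wild-type libraries (replicates 1 and 3), so sex was not balanced. In these bulk samples, fewer cells of a type and less RNA per cell cannot be told apart.

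**Figure D1:**
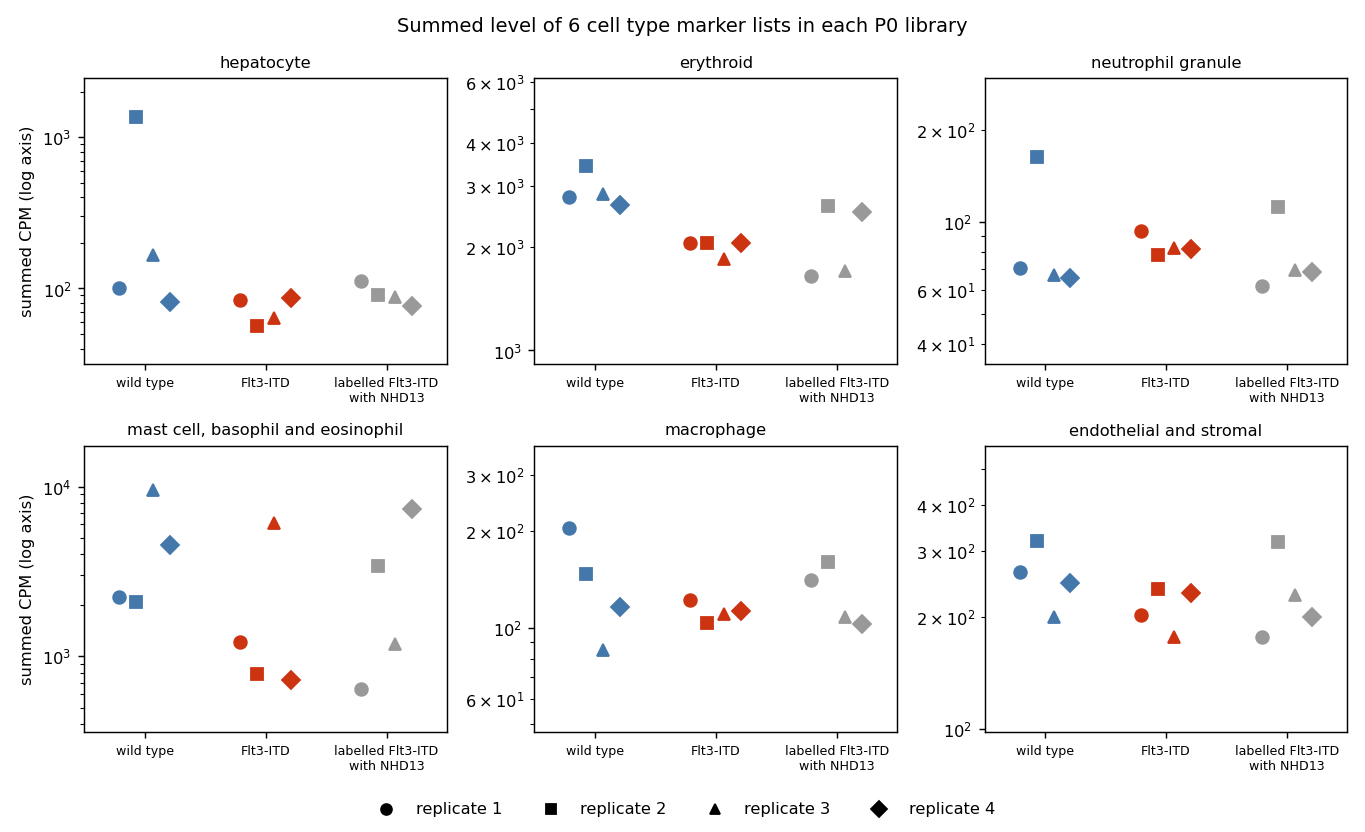
Summed level of the members of 6 cell type marker lists in each P0 library, in CPM on a log axis; each symbol is 1 library and its shape gives the replicate number. Wild-type replicate 2 stands at 1357 CPM for hepatocyte markers, and the erythroid sums, which are lower in Flt3-ITD (1835 to 2053) than in wild type (2640.0 to 3414), consist mostly of Car2 and overlap without it.

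With the 12 P0 libraries in one fit, 2 of 14359 tested genes passed (edgeR quasi-likelihood test, Benjamini-Hochberg adjusted p under 0.05; 0.0139% called, 0.00696% in each direction). Tspan7, an X-linked tetraspanin of the cell surface, was higher in Flt3-ITD, and Cdh17, a cadherin adhesion protein, was lower. Tspan7 stood at 3.25, 2.48, 1.82 and 1.46 CPM in wild-type replicates 1 to 4 and at 10.6, 8.09, 8.16 and 8.16 CPM in the Flt3-ITD replicates. Every Flt3-ITD library lay above every wild-type library, with a log2 fold change of 1.96 ± 0.28 (SE; adjusted p = 0.0417, n = 4 per group, edgeR). Cdh17 stood at 26.2, 37.2, 16.3 and 26.3 CPM in wild type and at 3.78, 4.41, 2.31 and 7.57 CPM in Flt3-ITD. The groups again did not overlap, and Cdh17 fell by 2.55 ± 0.38 on the log2 scale (adjusted p = 0.0417). Without wild-type replicate 2, 0 genes passed in this edgeR fit (555 higher and 610 lower at an unadjusted p under 0.05), while DESeq2 on all 12 libraries called 61 higher and 72 lower (0.974% of 13653 genes, 0.447% higher and 0.527% lower).

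The libraries that lent their spread to that fit varied more than the 8 compared. Socs2, a feedback inhibitor of cytokine receptor signalling induced by STAT5, stood at 72.7 and 102 CPM in replicates 1 and 3 of the group labelled Flt3-ITD with NHD13 but at 7.42 and 12.3 CPM in replicates 2 and 4, below the lowest wild-type library (14.2 CPM). The same 2 libraries were the lowest of that group for Ccn3, which encodes a secreted matricellular protein (0.973 and 0.167 CPM, against 2.92 and 4.59 CPM). Within the 8 libraries alone the biological coefficient of variation was 0.256, against 0.301 for all 12. In the fit of the 8 libraries alone, 61 genes were higher and 56 lower in Flt3-ITD, 0.838% of 13958 tested (0.437% higher and 0.401% lower). Both genes called with 12 libraries were among these 117. Of the 117, 17 still passed without wild-type replicate 2 (9 higher and 8 lower) and 3 with a term for sex (1 higher and 2 lower), and none changed sign under either. Leaving out wild-type replicate 1 left 8 of the 117 and leaving out Flt3-ITD replicate 2 left all 117, while each of the other 5 libraries left 17 to 33. "Passed" refers below to the fit of the 8 libraries alone, except where the fit of 12 libraries is named; every adjusted p is a Benjamini-Hochberg value from edgeR, and no gene other than Tspan7 and Cdh17 passed in the fit of 12.

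**Figure D2:**
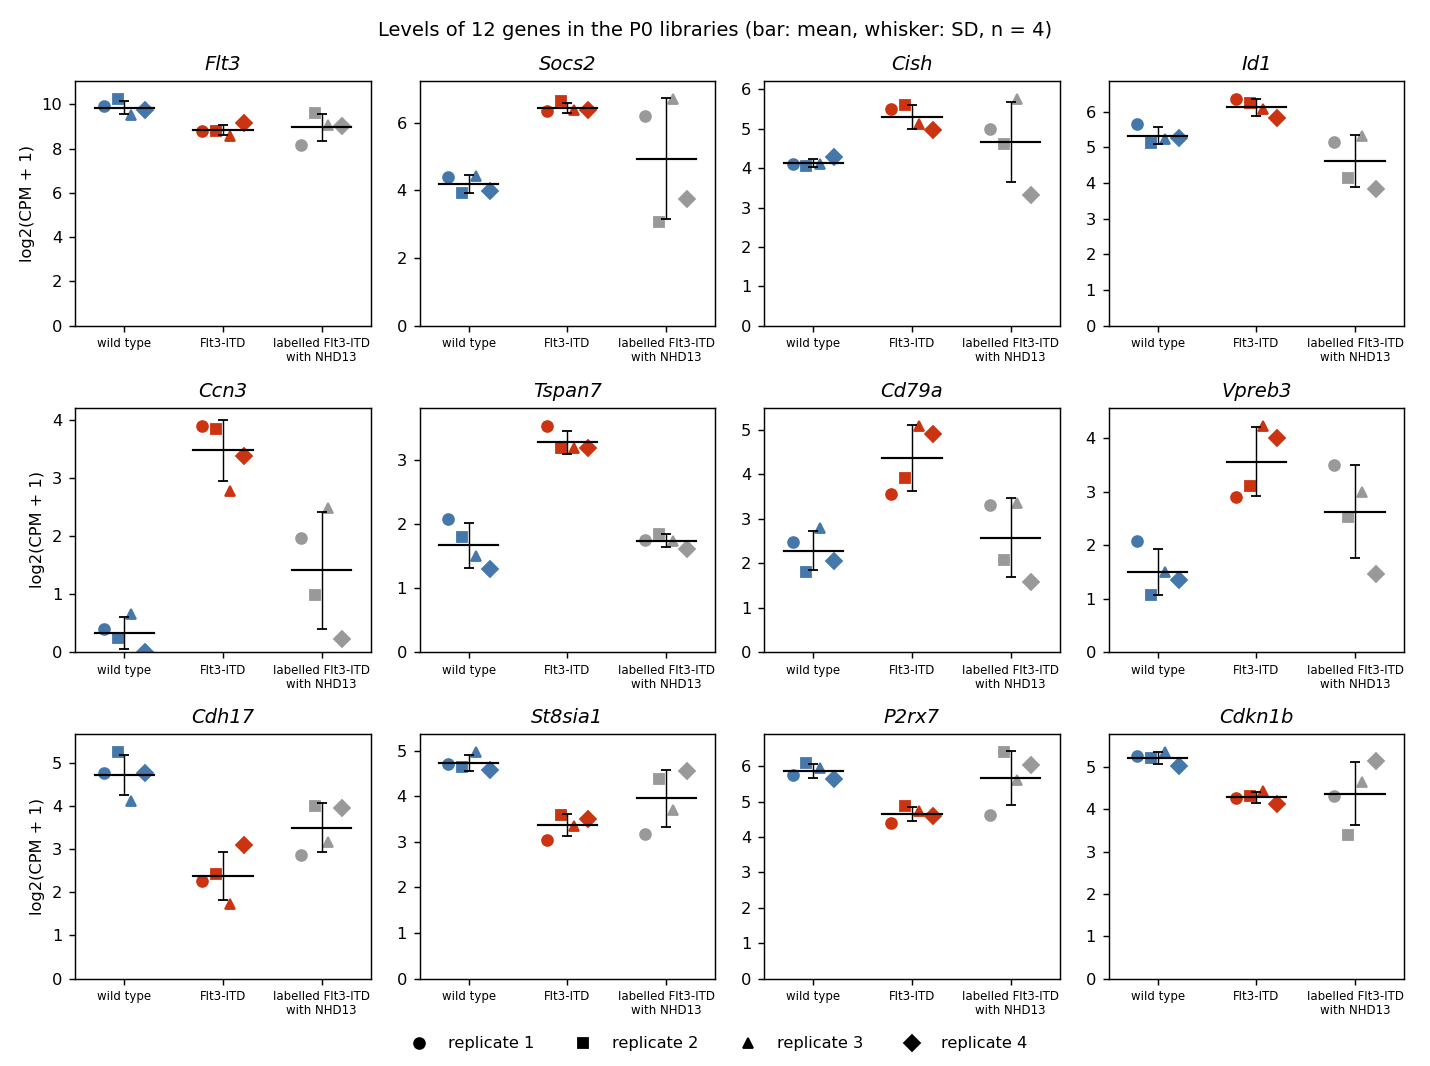
Levels of 12 genes in the P0 libraries on the log2(CPM + 1) scale, by group; each symbol is 1 library, the horizontal bar is the mean of 4 and the whisker the SD. In each panel the 4 Flt3-ITD libraries lie wholly above or wholly below the 4 wild-type libraries, and the grey group labelled Flt3-ITD with NHD13 spreads widely for Socs2 (7.42 to 102 CPM).

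Flt3 transcript itself (ENSMUSG00000042817, GRCm38 chr5:147330741-147400489, minus strand) was lower in Flt3-ITD. It stood at 983, 1202, 721 and 854 CPM in wild type and at 442, 449.6, 380.5 and 563 CPM in Flt3-ITD, so that the highest mutant library lay below the lowest wild-type one. The log2 fold change was -1.04 ± 0.16 (adjusted p = 0.0217). Without wild-type replicate 2 it was -0.90 and missed the threshold (adjusted p = 0.0517). At P14 the Flt3 difference was -0.90 ± 0.09 (adjusted p = 2.34e-08), and the ages were not shown to differ (difference -0.13 ± 0.23, adjusted p = 0.94).

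Known feedback targets of STAT5 were among the higher genes. Socs2 (ENSMUSG00000020027, GRCm38 chr10:95385362-95417180, minus strand) stood at 19.9, 14.2, 20.3 and 14.8 CPM in wild type and at 79.7, 98.1, 82.0 and 81.5 CPM in Flt3-ITD. No Flt3-ITD library came near the wild-type range, and the log2 fold change of 2.30 ± 0.16 had the smallest adjusted p at P0 (3.93e-05). It held without wild-type replicate 2 (2.22, adjusted p = 0.00035) and with a sex term (2.08, adjusted p = 0.000646). In the fit of 12 libraries, in which Socs2 of the third group spans 7.42 to 102 CPM, the SE was 0.65 and the adjusted p 0.323.

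Cish, a second member of the same inhibitor family, stood at 16.1, 15.7, 16.2 and 18.6 CPM in wild type and at 44.3, 47.5, 33.6 and 30.3 CPM in Flt3-ITD. The groups did not overlap (log2 fold change 1.23 ± 0.17, adjusted p = 0.0121). Cish passed without wild-type replicate 2 as well (adjusted p = 0.0471) but not with a sex term (0.131). Id1, an inhibitor of basic helix-loop-helix factors, was at 33.9 to 49.6 CPM in wild type and 54.9 to 80.3 CPM in Flt3-ITD (0.81 ± 0.16, adjusted p = 0.0434). Id1 did not pass without wild-type replicate 2 (adjusted p = 0.107) or with a sex term (0.217). Socs2, Cish and Id1 were the only members of the STAT5 target list to pass, all of them higher, where 0.437% of all tested genes were higher. The fit of 12 libraries tested 23 members of the list and the fit of 8 tested 22. Of the list, 2 members passed as higher without wild-type replicate 2 and 1 with a sex term. Without overlap between the groups, 3 members lay higher and 3 lower, where 5.51% and 4.55% of all tested genes did. The median of the list was 0.11, against -0.02 for all tested genes. With a sex term it was 0.018 with 12 libraries and -0.039 with 8, against -0.0006 and -0.0042 for all tested genes. Other targets did not move with them: Pim1, a serine/threonine kinase, differed by 0.24 ± 0.26 and Ccnd1, cyclin D1, by -0.78 ± 0.23 in the fit of 12 libraries, and neither passed in either fit.

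Ccn3 had the largest log2 fold change of the 61 genes that were higher. It stood at 0.318, 0.177, 0.579 and 0 CPM in wild type and at 14.0, 13.3, 5.85 and 9.47 CPM in Flt3-ITD. The transcript was thus near the detection limit in wild type and present in each mutant library (log2 fold change 5.38 ± 0.64, adjusted p = 0.00753; 0.0377 without wild-type replicate 2). Ifitm1, a membrane protein of the interferon-induced transmembrane family, was among the abundant genes that were higher, at 723, 597, 280.4 and 623 CPM in wild type and 1808, 1268, 1352 and 1839 CPM in Flt3-ITD. It passed at 1.49 ± 0.27 (adjusted p = 0.0438), though not without wild-type replicate 2 (adjusted p = 0.0978).

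A group of early B-cell genes was higher in Flt3-ITD. Vpreb1, Vpreb2 and Igll1 encode the surrogate light chain, which pairs with the immunoglobulin heavy chain on precursor B cells before a light chain is made. Vpreb3 is a related protein of the same stage, and Cd79a encodes a signalling subunit of the B-cell receptor. The 250 bases before the annotated start of these 5 genes are shown because these members were higher together. They are from RefSeq on GRCm38.p6, with the E-box CAGGTG, bound by E proteins, and the octamer ATGCAAAT, bound by OCT factors, searched on both strands and printed in capitals. In the order shown they lie at chr16:16869256-16869505 (minus strand), chr16:17980315-17980564 (plus), chr16:16863986-16864235 (minus), chr10:75948050-75948299 (plus) and chr7:24897247-24897496 (plus).
Vpreb1: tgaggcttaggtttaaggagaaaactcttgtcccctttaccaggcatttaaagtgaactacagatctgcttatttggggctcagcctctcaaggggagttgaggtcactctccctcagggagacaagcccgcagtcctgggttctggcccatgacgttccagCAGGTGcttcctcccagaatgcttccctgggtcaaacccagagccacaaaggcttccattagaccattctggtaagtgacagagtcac
Vpreb2: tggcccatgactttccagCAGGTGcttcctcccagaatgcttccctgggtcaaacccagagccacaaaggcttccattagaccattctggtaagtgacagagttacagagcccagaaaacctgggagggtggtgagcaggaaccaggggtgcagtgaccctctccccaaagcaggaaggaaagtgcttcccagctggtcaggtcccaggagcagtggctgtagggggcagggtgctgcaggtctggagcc
Igll1: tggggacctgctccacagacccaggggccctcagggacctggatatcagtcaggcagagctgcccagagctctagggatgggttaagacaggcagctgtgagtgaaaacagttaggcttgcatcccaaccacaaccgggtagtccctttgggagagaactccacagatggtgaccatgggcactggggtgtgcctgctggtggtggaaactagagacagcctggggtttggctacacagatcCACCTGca
Vpreb3: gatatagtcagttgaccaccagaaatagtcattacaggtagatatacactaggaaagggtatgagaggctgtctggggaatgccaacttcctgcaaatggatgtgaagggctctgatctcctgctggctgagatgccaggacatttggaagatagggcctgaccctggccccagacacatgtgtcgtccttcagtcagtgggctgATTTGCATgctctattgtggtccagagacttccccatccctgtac
Cd79a: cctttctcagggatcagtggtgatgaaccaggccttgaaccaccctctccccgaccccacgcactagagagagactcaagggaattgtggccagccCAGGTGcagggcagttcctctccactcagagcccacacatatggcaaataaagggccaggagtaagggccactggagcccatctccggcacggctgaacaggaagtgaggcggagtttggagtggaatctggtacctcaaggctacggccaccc
The E-box was found once each before Vpreb1, Vpreb2, Igll1 and Cd79a, and in 17.2% of the 32851 promoters of the table. The octamer was found once, before Vpreb3, starting 45 bases upstream of the start site, and in 1.6% of all promoters. The binding motif of EBF factors (matched in 0.779% of promoters) had no match in any of the 5 windows. The STAT motif, TTC and GAA separated by 3 bases (7.02% of promoters), had no match in the same stretch before Cish or Flt3. The Vpreb1 and Vpreb2 windows share an identical run of 91 bases at different distances from the start. The genes are near-identical copies, so the division of reads between them is uncertain. The letters are a description of these windows only.

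Igll1 stood at 8.24, 4.51, 8.48 and 4.09 CPM in wild type and at 17.9, 28.1, 61.1 and 49.7 CPM in Flt3-ITD. Cd79a stood at 4.56, 2.51, 5.87 and 3.15 CPM in wild type and at 10.6, 14.0, 33.0 and 28.9 CPM in Flt3-ITD. Neither gene overlapped between groups, and within Flt3-ITD replicates 3 and 4 were highest for both. The log2 fold changes were 2.63 ± 0.41 for Igll1 and 2.43 ± 0.39 for Cd79a (adjusted p = 0.0281 for each). Vpreb3 was higher by 2.62 ± 0.40 (adjusted p = 0.0217), Vpreb1 by 2.18 ± 0.43 (0.0442) and Vpreb2 by 2.75 ± 0.52 (0.0423). Without wild-type replicate 2 none of these 5 passed, with adjusted p from 0.0597 for Vpreb3 to 0.103 for Vpreb2 and changes of 1.91 for Vpreb1 to 2.61 for Vpreb2.

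The lymphoid list as a whole was mixed, with 11 of its 26 tested members positive and 15 negative. Of the 26, 5 passed as higher, among them Igll1, Vpreb3, Cd79a and Vpreb1, and 1 as lower (Ccr9). Over all tested genes, 0.437% passed as higher and 0.401% as lower. The median of the list was -0.18. Ebf1, a transcription factor that specifies B cells, differed by 1.29 ± 0.39 (adjusted p = 0.129). Il7r, the interleukin-7 receptor, and Dntt, terminal transferase, both expressed in earlier lymphoid progenitors, pointed the other way without passing. Il7r differed by -1.22 ± 0.39 and Dntt by -1.64 ± 0.95 in the fit of 12 libraries. Ly6d, a surface protein of B-committed lymphoid progenitors, was at 0.778, 0.38, 5.96 and 1.15 CPM in wild type and 10.7, 8.42, 61.3 and 28.5 CPM in Flt3-ITD. Its groups did not overlap, but replicate 3 was the highest of each group and the difference of 3.76 ± 1.10 did not pass (adjusted p = 0.156).

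Receptors of chemokines and cytokines were among the 56 lower genes. Ccr9, a chemokine receptor of progenitors that home to the thymus, stood at 91.6, 93.9, 113 and 71.9 CPM in wild type and at 40.8, 48.5, 49.0 and 60.6 CPM in Flt3-ITD. Its groups did not overlap (log2 fold change -0.90 ± 0.16, adjusted p = 0.032). Kit was at 916, 977, 1042 and 790.4 CPM in wild type and at 567, 746, 603 and 560.0 CPM in Flt3-ITD (-0.59 ± 0.12, adjusted p = 0.0451), again without overlap. Mast cells also carry Kit, and the part of the uneven mast cell markers in its difference was not tested. Tgfbr1, a receptor for TGF-beta, and Csf1r, the receptor for macrophage colony-stimulating factor, passed as well, at -0.61 ± 0.12 (adjusted p = 0.047) and -0.55 ± 0.12 (0.0498).

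These were 4 of 29 tested cytokine and chemokine receptors, none of which passed as higher. Over all tested genes, 0.401% passed as lower and 0.437% as higher. Of the 29, 7 had groups without overlap, each of them lower, where 4.55% of all tested genes were lower and 10.1% lay in either direction without overlap. The median of the receptor list was -0.31 and stayed below 0 in all 33 fits run at P0. These fits reuse the same libraries and include the fit of 8 libraries more than once, so they are not separate checks. None of the 4 receptors passed without wild-type replicate 2, where their adjusted p ranged from 0.0774 for Csf1r to 0.113 for Kit.

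Itgam and Cd33, surface proteins of myeloid cells, were lower. Itgam, the integrin CD11b, was at 36.1 to 44.1 CPM in wild type and 22.1 to 27.2 CPM in Flt3-ITD (-0.71 ± 0.14, adjusted p = 0.0423). Cd33, an inhibitory lectin of myeloid cells, was at 52.7 to 62.9 CPM and 29.9 to 41.6 CPM (-0.67 ± 0.14, adjusted p = 0.047). With Csf1r, these were among the 4 of 32 tested granulocyte-monocyte progenitor genes that passed, all lower (0.401% of all tested genes were lower). Without wild-type replicate 2, 0 members of the list passed (adjusted p = 0.0934 for Itgam and 0.102 for Cd33). With a sex term 0 passed as well (0.195 and 0.164). The granule genes of the same list did not pass. Mpo, myeloperoxidase, differed by 0.16 ± 0.25 and Elane, neutrophil elastase, by 0.13 ± 0.72 in the fit of 12 libraries.

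P2rx7, Gpr174, Rgs1 and St8sia1 were lower with and without wild-type replicate 2. P2rx7, an ATP-gated channel, stood at 53.2, 66.5, 60.8 and 48.5 CPM in wild type and at 20.2, 28.5, 25.7 and 22.9 CPM in Flt3-ITD (-1.23 ± 0.15, adjusted p = 0.00753; 0.0295 without that library). Gpr174, a receptor for lysophosphatidylserine, was at 13, 15.5, 14.7 and 14.8 CPM in wild type and at 4.93, 3.84, 5.63 and 5.68 CPM (-1.53 ± 0.19, adjusted p = 0.00753; 0.0295). Rgs1, which dampens G-protein signals of chemokine receptors, was at 22.5 to 33.4 CPM in wild type and 8.2 to 10.2 CPM in Flt3-ITD (-1.51 ± 0.18, adjusted p = 0.00753; 0.0191). None of these 3 overlapped between the groups, which the naming rule required of them. P2ry12, a purinergic receptor coupled to G proteins, was lower with all 8 libraries (-2.03 ± 0.38, adjusted p = 0.0423) and missed the threshold without that library (0.0597), and Adora2b, an adenosine receptor, was higher (1.65 ± 0.31, adjusted p = 0.0423) and also missed it (0.103). St8sia1, the sialyltransferase that makes ganglioside GD3, was at 25.3, 23.9, 30.4 and 22.7 CPM and at 7.20, 11.1, 9.13 and 10.3 CPM (-1.44 ± 0.18, adjusted p = 0.00753). St8sia1, Socs2 and the hydrolase gene Abhd2 (-1.03 ± 0.15, adjusted p = 0.0147) were the 3 genes that passed with a sex term.

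Most genes of the MYC and ribosome biogenesis list had a positive log2 fold change, and 1 passed. The list also holds genes that do not make ribosomes, such as Myc and the lactate dehydrogenase gene Ldha. Of 26 tested members of the MYC and ribosome biogenesis list, 25 had a positive log2 fold change, with values from -0.06 to 1.07 and a median of 0.39 (-0.02 over all tested genes). In 12 of the 26 the Flt3-ITD libraries all lay above the wild-type libraries, where 5.51% of all tested genes did, and in none were they all below. At an unadjusted p under 0.05 in the fit of 12 libraries, 13 were higher and 0 lower, against 5.12% and 5.11% of all genes. The median stayed between 0.33 and 0.40 in all 33 fits, which included other scalings and each library left out. These fits reuse the same libraries and are not separate checks.

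Nolc1, a nucleolar phosphoprotein that assists ribosomal RNA synthesis, was the one list member that passed. It stood at 168, 149, 117 and 159 CPM in wild type and at 261, 298, 203 and 243 CPM in Flt3-ITD, without overlap (0.76 ± 0.14, adjusted p = 0.0387; 0.0939 without wild-type replicate 2). Npm1, nucleophosmin, was at 1307, 1194, 1249 and 1157 CPM in wild type and 1652, 1436, 1700.3 and 1623 CPM in Flt3-ITD, also without overlap, and missed the threshold (adjusted p = 0.0646). Myc itself differed by 0.19 ± 0.19 in the fit of 12 libraries. Of the 61 higher genes, 5 outside the list were picked after the values were seen, so they add no weight to it. They were Noc4l, a ribosome assembly factor (0.66 ± 0.12, adjusted p = 0.037), and Pa2g4, a growth-regulated RNA-binding protein (0.54 ± 0.09, 0.0253). The others were the glycolytic enzymes Eno1 (0.57 ± 0.09, 0.0242) and Tpi1 (0.52 ± 0.10, 0.0451), and Hspd1, the mitochondrial chaperonin (0.52 ± 0.10, 0.0434). None of these 5 passed without wild-type replicate 2 (adjusted p = 0.0706 to 0.118).

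**Figure D3:**
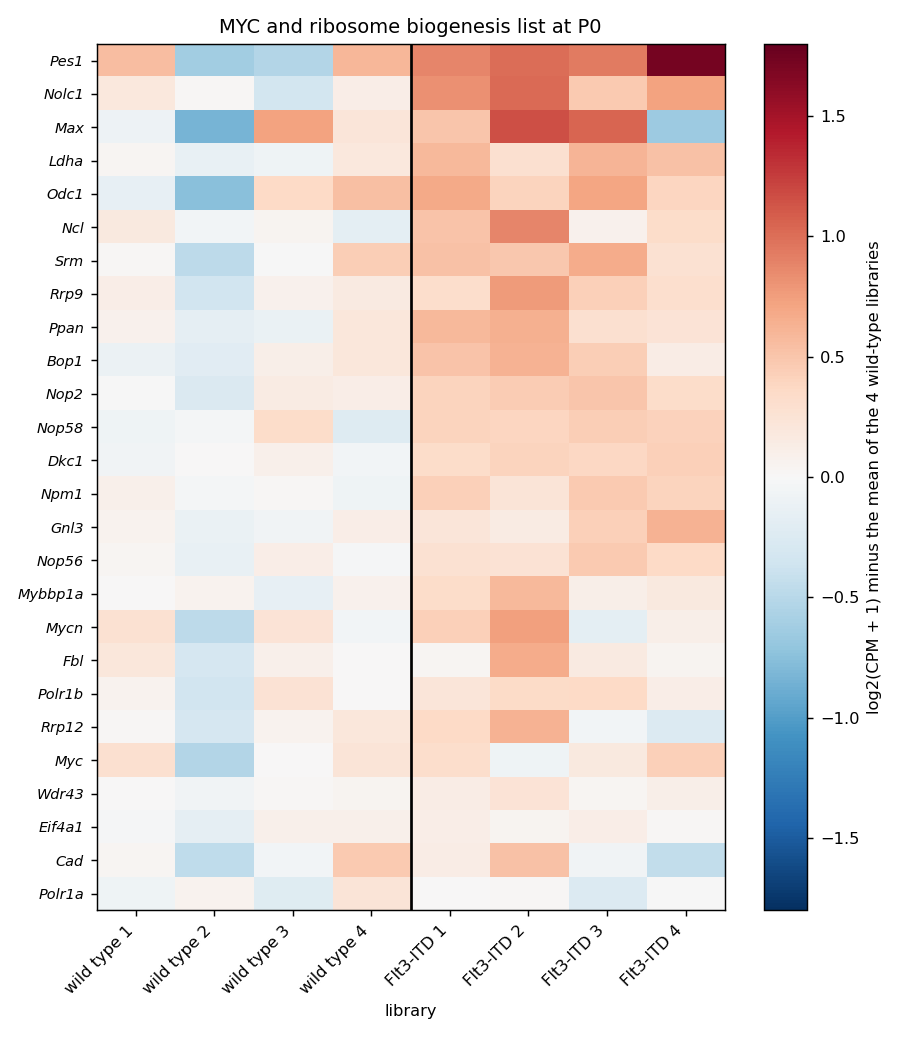
Level of the 26 tested members of the MYC and ribosome biogenesis list in each of the 8 libraries, as log2(CPM + 1) minus the mean of the 4 wild-type libraries; red is above that mean and blue below it. The Flt3-ITD columns are mostly red, with 25 of 26 genes positive in the fit, while wild-type replicate 2 is the bluest of the wild-type columns.

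Grhpr and Rgcc were among the higher genes that passed with and without wild-type replicate 2. Grhpr, an enzyme that clears glyoxylate, stood at 46.3, 52.3, 42.9 and 46.5 CPM in wild type and at 85.6, 87.2, 104 and 92.3 CPM in Flt3-ITD (0.97 ± 0.12, adjusted p = 0.00753; 0.0191 without that library). Rgcc, a regulator of the cell cycle, stood at 12.1, 11.2, 14.8 and 12.9 CPM and at 31.8, 23.7, 42.2 and 35.9 CPM (1.39 ± 0.19, adjusted p = 0.0121; 0.0471). Neither Grhpr nor Rgcc overlapped between groups, which for Rgcc was a condition of naming. Mif, a cytokine of inflammation (0.81 ± 0.14, adjusted p = 0.0327), Phgdh, the first enzyme of serine synthesis (0.48 ± 0.10, 0.0484), and Bcat1, an enzyme of branched-chain amino acid breakdown (1.52 ± 0.32, 0.0496), passed with all 8 libraries. They missed the threshold without that library, at adjusted p = 0.0934 for Mif, 0.119 for Phgdh and 0.126 for Bcat1.

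Inhibitors of the cell cycle split. Cdkn1b, the inhibitor p27, stood at 37.5, 36.3, 40.0 and 31.8 CPM in wild type and at 18.4, 19, 20.7 and 16.5 CPM in Flt3-ITD, without overlap (-0.97 ± 0.14, adjusted p = 0.0158; 0.0471 without wild-type replicate 2). Cdkn1a, the inhibitor p21, stood at 12.3, 10.6, 10.8 and 10.2 CPM and at 16.5, 25.7, 33.0 and 19.2 CPM (1.10 ± 0.21, adjusted p = 0.0434; 0.103 without that library). One inhibitor was thus lower and the other higher in every Flt3-ITD library. They were the 2 of 33 tested cell cycle genes that passed, where 0.838% of all tested genes passed. Mki67, a marker of cycling cells, was at 14.9 to 39.8 CPM in wild type and 18.4 to 42.5 CPM in Flt3-ITD, with ranges that overlapped, and differed by -0.21 ± 0.33 in the fit of 12 libraries.

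**Figure D4:**
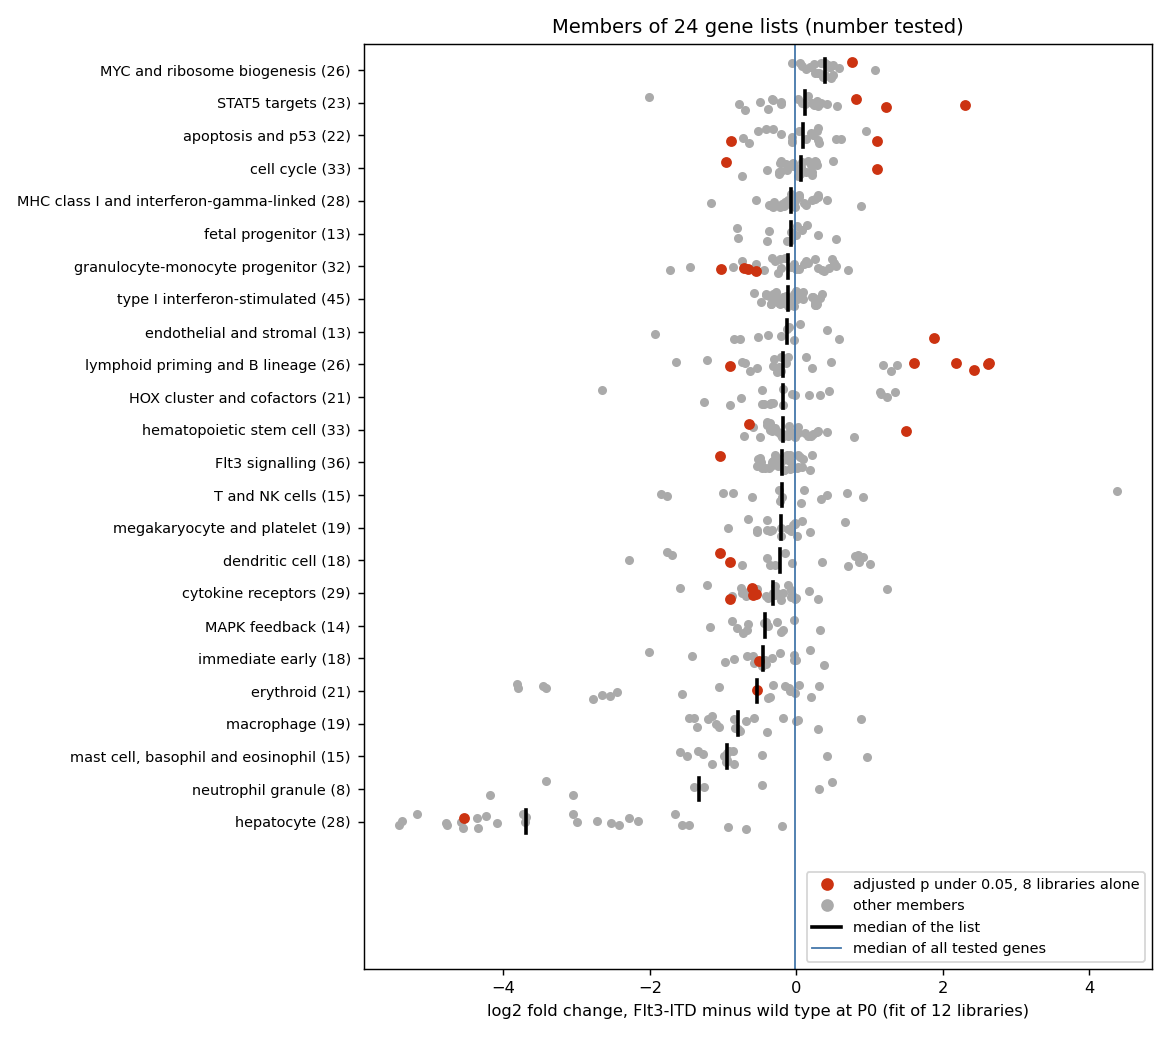
Log2 fold changes at P0 (Flt3-ITD minus wild type, fit of 12 libraries) of the tested members of 24 gene lists; each point is a gene, red where its adjusted p was under 0.05 in the fit of the 8 libraries alone, the black bar is the list median and the blue line the median of all tested genes. Of the 24 lists shown, which leave out the sex-linked one, the MYC and ribosome biogenesis list has the highest median (0.39) and the hepatocyte list the lowest (-3.70), which was -1.09 without wild-type replicate 2.

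Lists of stem cells, feedback genes and neighbouring cell types showed few or no passing genes. Over all tested genes, 0.437% passed as higher and 0.401% as lower. Of 36 tested Flt3 signalling genes, Flt3 alone passed, and 28 had a negative log2 fold change (median -0.19). Of 14 tested MAPK feedback genes, which RAS-MAPK signalling induces, 0 passed in either edgeR fit and 0 in DESeq2 with 12 libraries. At an unadjusted p under 0.05 in the fit of 12 libraries, 3 of them were lower and 0 higher, against 5.11% and 5.12% of all tested genes. The median of these 14 was -0.43. Of 33 tested stem cell genes, 1 passed as higher (Ifitm1) and 1 as lower, Angpt1, a ligand of the TIE2 receptor (-0.65 ± 0.13, adjusted p = 0.0486; 0.125 without wild-type replicate 2). Of 21 tested erythroid genes, 1 passed as lower, Car2, a carbonic anhydrase (-0.53 ± 0.10, adjusted p = 0.0397; 0.0939 without wild-type replicate 2). Car2 makes up most of the summed erythroid markers. Without it the sums of the list overlapped, at 327 to 590.5 CPM in wild type and 313 to 419 CPM in Flt3-ITD. The hemoglobin genes that were high in wild-type replicate 2 gave the larger differences of that list, such as -3.46 ± 1.13 for Hbb-bs. Hbb-bt, which was abundant in all 8 libraries, differed by 0.03 ± 0.24 in the fit of 12 libraries. All 28 tested hepatocyte genes had a negative log2 fold change. Their median was -3.70 with wild-type replicate 2 and -1.09 without it, and 1 passed (Itih2, a secreted liver protein, -4.56 ± 0.90, adjusted p = 0.0442; 0.103 without that library).

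The same comparison at P14, fitted on the 24 libraries of that age, called 553 genes higher and 685 lower (8.6% of 14394, 3.84% higher and 4.76% lower). Of the 117 genes that passed at P0, 115 were tested at P14, where 66 passed in the same direction and 1, Csf1r, in the opposite one. Sex was unbalanced in the same direction at P14, where Y-linked counts exceeded Xist counts in 4 of 4 Flt3-ITD and 1 of 4 wild-type libraries, so passing at both ages does not separate genotype from sex. At P14 Csf1r was at 27.9 ± 3.19 CPM (SD, n = 4) in wild type and 53.8 ± 5.82 CPM in Flt3-ITD, a log2 fold change of 0.95 ± 0.17 (SE; adjusted p = 0.00041). The difference between the ages was -1.50 ± 0.31 for Csf1r (P0 minus P14, adjusted p = 0.029). Socs2 was higher at both ages, with a log2 fold change of 4.37 ± 0.24 at P14, and the difference of -2.07 ± 0.64 did not pass (adjusted p = 0.292). Cdkn1b differed by -0.12 ± 0.23 at P14, and its age difference did not pass either (adjusted p = 0.554).

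In the fit of all 36 libraries, the effect of Flt3-ITD was higher at P0 than at P14 for 14 genes and lower for 15 (0.194% of 14984 tested, 0.0934% higher and 0.1% lower). Each age was set against its own wild type. The ages come in separate count tables, so age and whatever else differed between the tables cannot be told apart. The count of 29 depends on the libraries: leaving out 1 library gave 7 to 17 genes higher and 3 to 20 lower (7 higher without Flt3-ITD replicate 1, 3 lower without wild-type replicate 4, both of P0), and none of the 29 changed sign.

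Myeloid genes were among those whose effect was lower at P0. Rab44, a small GTPase of granulocytes and mast cells, had a log2 fold change of 0.55 ± 0.26 at P0 and 3.08 ± 0.26 at P14 (difference -2.53 ± 0.36, adjusted p = 0.00069). Irf8, a transcription factor of monocytes and dendritic cells, was at 46.7, 62.1, 83.7 and 73.3 CPM in wild type and 45.1, 72.9, 99.6 and 69.0 CPM in Flt3-ITD at P0, with overlapping groups (0.11 ± 0.23). At P14 the difference of Irf8 was 1.78 ± 0.18 (age difference -1.66 ± 0.29, adjusted p = 0.00627). Ctsg, the granule protease cathepsin G, and Ly86, a surface partner of a Toll-like receptor relative, differed by 0.48 ± 0.36 and -0.44 ± 0.46 at P0 and by 3.0 ± 0.42 and 2.42 ± 0.41 at P14. Over the whole granulocyte-monocyte list the median was -0.11 at P0 and 0.53 at P14, where 12 members were called higher and 2 lower. Of all genes tested at P14, 3.84% were called higher and 4.76% lower. The P0 median of the list was above 0 in 2 of 33 fits. These 2 were the fits with a sex term, at 0.040 with 12 libraries and 0.037 with 8.

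On the other side stood genes that were lower in Flt3-ITD at P14 by more than at P0. St8sia1 had log2 fold changes of -1.44 ± 0.28 at P0 (fit of 12 libraries) and -4.24 ± 0.38 at P14 (difference 2.81 ± 0.48, adjusted p = 0.00627). Etv5, a transcription factor induced by MAPK signalling, was at 38.7, 41.3, 31.4 and 29.4 CPM in wild type and 22.9, 35.3, 12.5 and 18.4 CPM in Flt3-ITD at P0, with overlap (-0.66 ± 0.26). At P14 Etv5 differed by -2.81 ± 0.24 (age difference 2.15 ± 0.37, adjusted p = 0.00627). Gem, a small GTPase, differed by -1.43 ± 0.35 and -3.67 ± 0.19, Ccnd1 by -0.78 ± 0.23 and -2.65 ± 0.25, and Trbc2, a T-cell receptor constant region, by -0.60 ± 0.24 and -2.67 ± 0.28. The MAPK feedback list, to which Etv5 belongs, had a median of -0.43 at P0 and -1.09 at P14. At P14, 8 of its members were called lower and 1 higher, where 4.76% and 3.84% of all tested genes were.

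**Figure D5:**
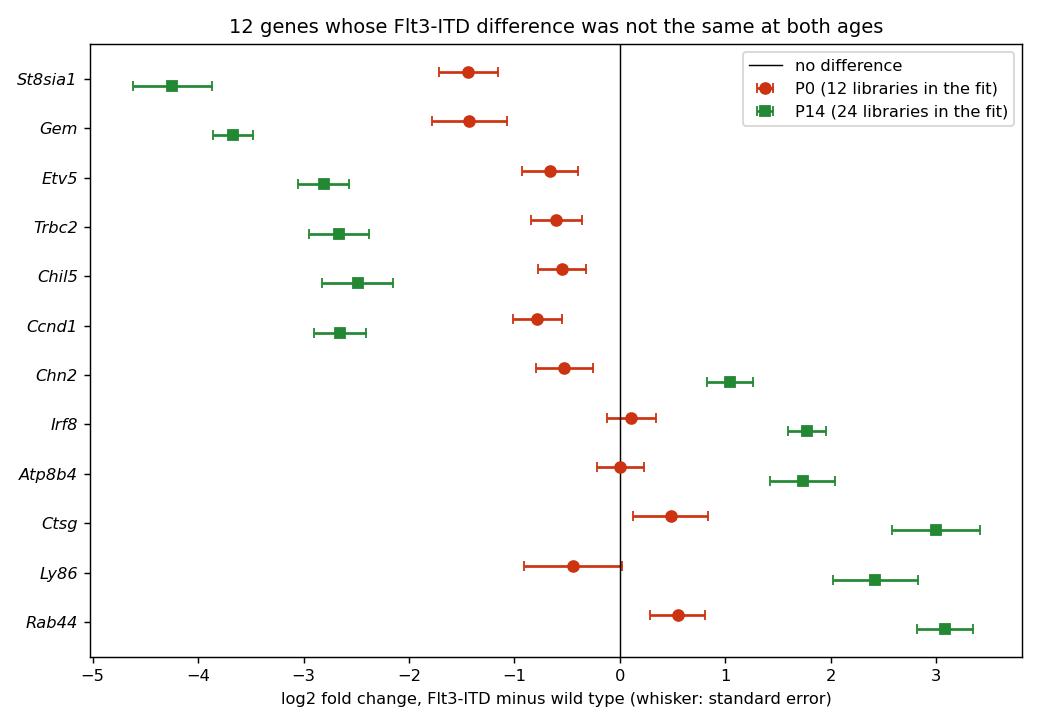
Log2 fold changes (Flt3-ITD minus wild type) of the 12 genes named for extreme age differences that passed, at P0 (circles) and P14 (squares), with standard errors. Csf1r, whose age difference also passed, is not shown. The 6 upper genes lie further below 0 at P14, as St8sia1 does at -1.44 and -4.24, and the 6 lower genes lie above 0 at P14, with P0 points between -0.53 for Chn2 and 0.55 for Rab44.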

How the data were processed

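Cellular RNA was prepared with Qiagen's RNeasy micro plus kit and amplified with Clontech SMART chemistry, per the labels' protocols. The authors deposited unnormalized counts for each Ensembl gene, from STAR 3.0.4, Subread and featureCounts 1.4.5 per the submitters' processing notes; genome build, annotation release and strand setting are not given in the sources used here. Among the P0 rows, 276 repeated identical ones were dropped, leaving 40548 gene IDs, of which 40254 had a symbol in GENCODE M21 (GRCm38). A further 4 of its columns match no sample of the labels and were not used, and the P0 NHD13 samples are not analysed here. Some passing genes counted in the lists are not reported here by name. Libraries within a P0 group were checked for copies and none was found (chi-square per degree of freedom of at least 27.7 over 12 pairs).

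Genes were tested with edgeR 4.0.16 in R 4.3.3 (TMM, filterByExpr, robust quasi-likelihood F test), 1 mean per group, with the 12 P0 libraries in the main fit (9 residual degrees of freedom). The 8 libraries alone (6 degrees of freedom) were a listed alternative. Other alternatives were DESeq2 1.42.0, RLE scaling, no filter, a replicate block, a sex term and each library left out. CPM of single genes use TMM-scaled library sizes, while summed lists and the progenitor, liver and Hbb-bs values of the opening use plain totals.

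The members and the 25 gene lists were chosen with earlier results of these data known, so lists are described by counts and medians without a test. The naming rule takes Flt3, the passing genes of largest change, per list the passing members (else the most abundant) and the 12 extreme age differences. Genes named for a large change had to reach a mean log2 CPM of 2 and lie without overlap between the groups. For them, non-overlap was fixed by the rule and is no added support. Since few genes passed in the main fit, the rule was applied to the fit of 8 libraries after its values were seen, and other named genes, the B-lineage promoters and their motifs were also chosen after the values were seen. On simulated counts with 200 changed genes, edgeR with 12 libraries (14359 genes) recovered 17.9%, 56.7% and 100% of 1.5-, 2- and 4-fold changes, with 4.92% of calls on unchanged genes; with 8 libraries (13958 genes) these were 28.4%, 71.6%, 100% and 4.32%. DESeq2 made 16.9% and 20.6% of its calls on unchanged genes. For the age difference (14984 genes) edgeR recovered 11.9%, 59.7% and 98.5%. Every simulated library was drawn around the same gene means, apart from the changed genes. Sex imbalance, the liver transcripts of wild-type replicate 2 and deviations shared by same-numbered libraries were absent from it. The simulation therefore does not give the share of false calls among the genes called here.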

Additional observations from a re-analysis of the deposited data

Results flagged for a closer look

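Of 230 sets of 4 libraries examined, 17 had 1 library separated from the other 3 by more than the 95% critical gap of Dixon's test, a gap that chance gives in about 1 of 20 sets. In wild-type replicate 2 these were Afp, the fetal liver protein alpha-fetoprotein, at 146 CPM (next library 22.2), Gem at 216 CPM (next 99.0), and the summed hepatocyte and neutrophil granule markers at 1357 and 163 CPM (next 167 and 70.8). In Flt3-ITD replicate 3 they were the mast cell proteases Cma1 at 1398 CPM (next 243) and Tpsb2 at 3642 CPM (next 726), the replication gene Mcm5 at 1032 CPM, Myl10 at 49.5 CPM (next 23.5), the summed mast cell, basophil and eosinophil markers at 6071 CPM (next 1210.0), and low sums of the stem cell list (7120.2 CPM) and the erythroid list (1835 CPM, next 2045). The other 6 were Plac8 in wild-type replicate 1 (922 CPM), the lymphoid list in wild-type replicate 3 (2841 CPM), Cish in wild-type replicate 4 (18.6 CPM), Tspan7 in Flt3-ITD replicate 1 (10.6 CPM), Socs2 in Flt3-ITD replicate 2 (98.1 CPM) and Cd34 in Flt3-ITD replicate 4 (1904 CPM). For Socs2, Cish and Tspan7 the groups did not overlap with the separated library included.

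By edgeR's test, the effect of Flt3-ITD differed between the ages for Csf1r, given above, and for the 12 genes named for extreme age differences. As P0 minus P14 on the log2 scale it was 2.81 for St8sia1, 2.24 for Gem, 2.15 for Etv5, 2.07 for Trbc2, 1.94 for Chil5, a chitinase-like protein, and 1.88 for Ccnd1. It was -2.86 for Ly86, -2.53 for Rab44, -2.50 for Ctsg, -1.73 for Atp8b4, a phospholipid flippase, -1.66 for Irf8 and -1.58 for Chn2, a RAC GTPase-activating protein.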

How the results depend on the processing

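In the fit of 12 libraries the call of 1 gene higher and 1 lower was unchanged under RLE scaling and without a filter. It became 61 and 72 with DESeq2, 61 and 56 with the 8 libraries alone, 4 and 2 with a replicate block, and 0 and 0 with a sex term. Leaving out a library gave 0 to 6 higher and 0 to 3 lower (6 higher without replicate 4 labelled Flt3-ITD with NHD13, 3 lower without its replicate 2, the third group being left out in turn only after seeing the data). In the fit of the 8 libraries, whose alternatives were chosen after seeing the data, the 61 higher and 56 lower genes became 72 and 55 with RLE scaling, 68 and 63 without a filter, 419 and 382 with DESeq2, 110 and 113 with a replicate block, and 1 and 2 with a sex term. Leaving out a library gave 4 to 520.0 higher and 4 to 273 lower: 4 and 4 without wild-type replicate 1, 9 and 8 without wild-type replicate 2, 520.0 and 273 without Flt3-ITD replicate 2. None of the 117 changed sign under these alternatives, 116 were called by DESeq2 on the same libraries and 107 under the block; the cause of the changes in number was not tested.

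For the age difference, 14 higher and 15 lower became 32 and 38 with DESeq2, 22 and 32 with the 16 wild-type and Flt3-ITD libraries, 12 and 9 without a filter, 14 and 17 with a replicate block, 14 and 12 with a sex term, 15 and 15 with RLE scaling, and 7 to 17 and 3 to 20 with 1 library left out. None of the 29 changed sign. Same-numbered wild-type and Flt3-ITD libraries had correlations of their deviations of 0.25, 0.14, 0.51 and -0.0038, so 3 of 4 pairs deviated together and 1 did not, and not every library correlated best with its own number. The labels state nothing that the numbers share, and the libraries were not treated as paired, so a call gained or lost under the block is not read as a change of the effect. Fold changes of genes near the detection limit in wild type, such as Ccn3, rest on few counts.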

Other observations

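The list of type I interferon-stimulated genes, to which Ifitm1 does not belong, showed no called difference at P0. Of 45 tested members of the type I interferon list, 0 passed in either direction in the edgeR fits of 12 and of 8 libraries. In DESeq2 with 12 libraries 0 passed. At an unadjusted p under 0.05, edgeR with 12 libraries had 0 higher and 1 lower, against 5.12% and 5.11% of all tested genes. The median log2 fold change of the list was -0.12 with all 12 libraries and 0.13 without wild-type replicate 2, and it was above 0 in 6 of 33 fits. At P14 the median of the list was 0.35, with 6 members called higher and 0 lower, where 3.84% and 4.76% of all tested genes were. Ifit1, an interferon-induced RNA-binding protein, stood at 60.4, 92.7, 33.8 and 36.4 CPM in wild type and at 43.1, 82.5, 28.0 and 54.0 CPM in Flt3-ITD at P0, with groups that overlapped (-0.11 ± 0.36).

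Mast cell proteases were abundant in every P0 library and low at P14. Tpsb2, a tryptase, stood at 1179, 1049.5, 4952 and 2682 CPM in wild type and at 726, 432, 3642 and 437 CPM in Flt3-ITD at P0. Replicate 3 was the highest of both groups, and the groups overlapped. At P14 Tpsb2 was at 8.15 ± 6.59 CPM (SD, n = 4) in wild type and 8.21 ± 6.35 CPM in Flt3-ITD.

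In the libraries labelled Flt3-ITD with NHD13 at P0, other genes varied as well. Cish was at 23.7 and 8.95 CPM in replicates 2 and 4 and at 30.7 and 52.9 CPM in replicates 1 and 3, Tspan7 at 2.05 to 2.62 CPM in all 4, and Cdh17 at 15.0 and 14.6 CPM in replicates 2 and 4 and at 6.32 and 7.93 CPM in replicates 1 and 3. Whether the labels of these libraries bear on their values was not tested.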
